A study of Mus musculus with 4 samples.

Results

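The 8 miRNA genes described here are Mir200a, Mir200b, Mir429, Mir200c and Mir141 of the miR-200 family, Mir182 and Mir96 of a second gene cluster, and Mir375. They were taken as epithelial, sensory and endocrine miRNAs that stood high in the wild-type AGO2 immunoprecipitate (IP), and their regions were those overlapping a member gene by at least 1 base on the same strand. They are 8 of the 312 annotated miRNA genes with a region in the wild-type IP and of 339 in the other IP. They hold 18 of the 46860 wild-type clusters, 9 of the 86106 clusters of the other IP, and 18 of the 46862 regions in the authors' deposited table, which compares the IPs. The wild-type values chose the members, and that table uses the same wild-type IP, so the values of both are given as a description. Only the scores of the second IP over its own input were outside the choice.

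The libraries came from AGO2 eCLIP, in which RNA crosslinked to the Argonaute protein AGO2 is precipitated and sequenced beside a size-matched input. The antibody was EAG009. The C57BL/6 mice were either wild type or labelled FMR1 ko, and whole brain was taken on postnatal day 0. Fmr1 encodes FMRP, an RNA-binding protein. Each genotype had 1 IP and 1 input. The inputs enter only through the scores. The labels give neither the allele nor the number of animals in a library. Fmr1 had 2 exonic clusters in the wild-type IP (9 reads) and 5 in the other (21 reads in the 3 clusters whose reads could be found), with 0 enriched in either, so the second library is called knockout-labelled. Every difference below is between 2 libraries, with no replicate check and no test across libraries. Intervals are exact 95% intervals that cover counting error only.

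A miRNA guides AGO2 to messenger RNAs that pair with its seed, the bases near its 5′ end. The miR-200 family is abundant in epithelia and is best known for repressing Zeb1 and Zeb2, transcription factors of the mesenchymal state. Its genes lie in a pair of clusters on different chromosomes. The miR-183, miR-96 and miR-182 cluster is known from sensory cells of the retina and inner ear, and miR-375 from pancreatic islets and other endocrine cells, the pituitary among them. In RNA from a whole brain, fewer cells of a type and less RNA per cell cannot be told apart.

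The mature forms on which the clusters lay fall into 4 seed groups, and they are shown because the seeds decide which target sites can be sought. Sequences are from RefSeq (GRCm38.p6), with the seed, bases 2 to 8, in capitals. The first pair shares 1 seed, the next 3 share another, and miR-182-5p and miR-96-5p each have their own.
mmu-miR-200a-3p: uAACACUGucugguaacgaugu
mmu-miR-141-3p: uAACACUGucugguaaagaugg
mmu-miR-200b-3p: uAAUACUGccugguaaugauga
mmu-miR-200c-3p: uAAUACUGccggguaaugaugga
mmu-miR-429-3p: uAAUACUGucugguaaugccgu
mmu-miR-182-5p: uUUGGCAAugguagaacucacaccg
mmu-miR-96-5p: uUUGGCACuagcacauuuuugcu

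The sequences are close enough that reads of relatives could be hard to separate. miR-200a-3p and miR-141-3p differ at 2 of 22 positions and miR-200b-3p and miR-200c-3p at 2 of 22, none of them in the seed. The seeds of miR-200a-3p and miR-200b-3p differ at 1 base, as do those of miR-182-5p and miR-96-5p. How reads that fit several genes were placed is not given in the sources used here, so values of single relatives are less certain than sums over a seed group.

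In both libraries the AGO2 clusters covered 1 arm of each hairpin. They lay on the 3p arm of the 5 miR-200 family genes and of Mir375 and on the 5p arm of Mir182 and Mir96, with 0 clusters on the opposite arm. At the 7 genes other than Mir375, the cluster ends were within 3 bases of the listed mature miRNA. The wild-type clusters spanned 21 to 25 bases and the knockout-labelled clusters 21 to 26. The hairpins of Mir429, Mir182 and Mir375 are printed to show an arm of each kind, with the wild-type cluster in capitals, each from the minus strand of its chromosome. Mir375 has its cluster at bases 39 to 59 of a hairpin of 64, on the arm of miR-375-3p.
Mir429, chr4:156053905-156053987: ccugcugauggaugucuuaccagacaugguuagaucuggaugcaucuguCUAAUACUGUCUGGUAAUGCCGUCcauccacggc
Mir182, chr6:30165918-30165992: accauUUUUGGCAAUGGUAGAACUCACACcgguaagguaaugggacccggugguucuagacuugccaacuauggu
Mir375, chr1:74900658-74900721: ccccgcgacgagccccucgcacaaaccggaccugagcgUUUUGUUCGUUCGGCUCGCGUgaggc

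**Figure D1:**
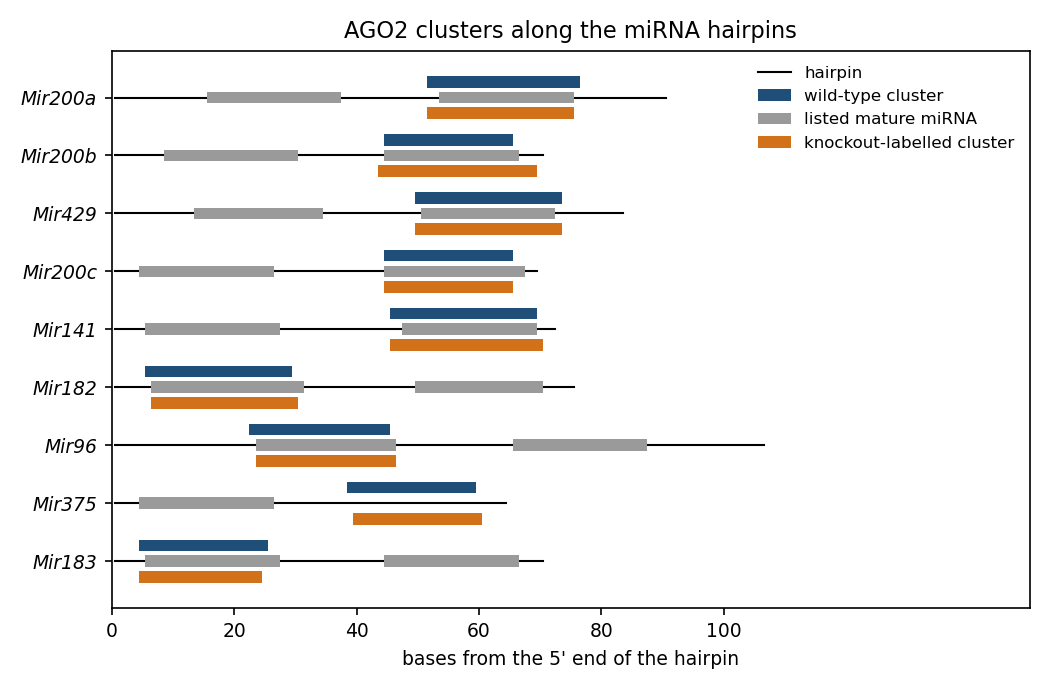
Position of the AGO2 clusters along each hairpin, in bases from its 5′ end, for the 8 members and Mir183. Blue bars are wild-type clusters, orange bars knockout-labelled clusters and grey bars the listed mature miRNAs. The bars of both libraries lie over the same arm of every hairpin.

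The genes form 3 compact groups and Mir375 on its own. On chromosome 4, Mir429 and Mir200a are 908 bases apart and Mir200a and Mir200b 695, inside Ttll10 and Gm13648. On chromosome 6, Mir141 and Mir200c are 336 bases apart, inside Gm15884. Mir182 and Mir96 are 3453 bases apart on the same chromosome, with Mir183 116 bases beyond Mir96. The overlapping genes Ttll10, Gm13648, Gm15884 and Gm29008 carried 0 other clusters in either library. Within 5000 bases on the same strand there were 0 clusters outside miRNA genes, except 2 near Mir375 in the knockout-labelled library.

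The depth ratios of the libraries and the reads at these genes were recovered from the scores. For every wild-type IP read there were 2.28 reads in the knockout-labelled IP. Each input was deeper than its IP, by a factor of 6.34 for wild type and 1.92 for the knockout-labelled pair. The scores were read as dividing by the input reads plus 1, which was checked only in the comparison of the IPs. Read so, all 8 members had 0 input reads in both inputs. Their log2 over input is therefore set by the IP reads and the depth ratio, and a given number of reads scores higher in wild type, where the input was deeper.

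Every member had more reads in the wild-type IP than in the deeper knockout-labelled IP. Of the chromosome 4 genes, Mir429 had 157 wild-type and 41 knockout-labelled reads. Mir200a had 109 and 15. Mir200b had 106 and 20. The 3 genes thus ran in the same direction, with Mir429 highest in both libraries. On chromosome 6, Mir141 had 96 wild-type and 14 knockout-labelled reads. Mir200c, with 61 and 4, had the fewest knockout-labelled reads of all members. In the sensory group, Mir182 had 159 and 45 reads, the highest of the 8 in both libraries. Mir96 had 47 and 7 reads, and Mir375, the endocrine member, had 70 and 15. The clusters are of nearly equal length, so reads can be compared between these genes. By wild-type reads the order was Mir182, Mir429, Mir200a, Mir200b, Mir141, Mir375, Mir200c and Mir96, and neighbours in this order had overlapping counting intervals, except Mir429 (133 to 184) and Mir200a (89.5 to 131). In the knockout-labelled library the order was Mir182, Mir429, Mir200b, Mir200a level with Mir375, Mir141, Mir96 and Mir200c, and every pair of neighbours overlapped.

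**Figure D2:**
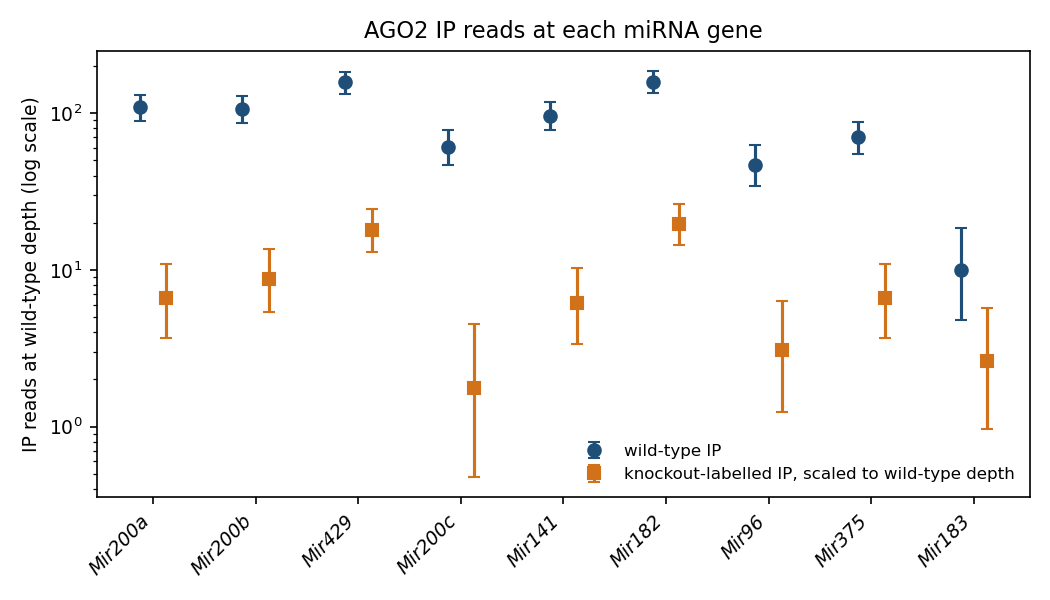
Reads in the AGO2 IP at the 8 members and Mir183, on a log axis. Blue circles are wild-type reads, orange squares knockout-labelled reads scaled to the wild-type depth, and bars exact 95% intervals for counting error. At each of the 8 members the blue interval lies above the orange one, and at Mir183 the intervals overlap.

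Scaled to equal depth, the wild-type IP held 8.05 to 34.7 times the reads of the knockout-labelled IP at single members. Mir200c had the largest ratio, 34.7 (12.9 to 132), on 4 knockout-labelled reads. Mir182 had the smallest, 8.05 (5.75 to 11.5), and Mir429 had 8.72 (6.15 to 12.6). The interval of Mir200c lies above both of these. The ratios of Mir200a (16.6, 9.61 to 30.6), Mir141 (15.6, 8.87 to 29.6) and Mir96 (15.3, 6.87 to 40.1) were close together. Mir200b had 12.1 (7.44 to 20.6) and Mir375 10.6 (6.03 to 20).

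Sums over relatives gave ratios of the same size. The chromosome 4 cluster had 372 and 76 reads (ratio 11.2, 8.69 to 14.5). The Mir200c and Mir141 cluster had 157 and 18 (19.9, 12.2 to 34.4). By seed, the miR-200b, miR-200c and miR-429 group had 324 and 65 reads (11.4, 8.68 to 15.1), and miR-200a with miR-141 had 205 and 29 (16.1, 10.9 to 24.7). The intervals of the seed groups overlap. Mir182 and Mir96 together had 206 and 52 (9.03, 6.63 to 12.5). All 8 genes held 805 wild-type and 161 knockout-labelled reads (11.4, 9.61 to 13.6). Of the reads found at 290 miRNA genes, the members took 2.65% in wild type (805 of 30370; 2.47 to 2.84). They took 0.656% in the knockout-labelled library (161 of 24548; 0.559 to 0.765). Genes whose reads could not be recovered from the authors' deposited table are outside these shares. Over input, the −log10 p stood at its ceiling of 400 for 33 miRNA genes in wild type and for 12 in the other IP. The shares rest on the authors' deposited table instead. There, too, regions at either end of the −log10 p scale give no recovered reads, and genes with only such regions are outside the shares.

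Over input, all 8 members counted as enriched in wild type, at limits of 3 for both the authors' −log10 p and log2. Of the 312 miRNA genes, 89.1% did so there, and of all wild-type clusters 24.1%. The wild-type choice of the members uses this contrast. Their log2 over input ran from 8.22 at Mir96 to 9.98 at Mir182. Fold limits took the IP reads as exact, without their counting error, and 3 reads as the limit that an input count of 0 allows. On that basis the enrichment was at least 99.3-fold at Mir96 and at least 336-fold at Mir182. In the knockout-labelled library, which the choice did not use, 6 of 8 were enriched, beside 68.7% of 339 miRNA genes and 3.08% of all clusters. Mir200c (log2 2.94, −log10 p 1.30) and Mir96 (log2 3.75, −log10 p 2.51) were not. The other 6 ran from 4.75 at Mir141 to 6.43 at Mir182, at least 8.95-fold and at least 28.8-fold on the same basis.

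Against the other miRNA genes, all 8 members ranked above the middle in wild type. In the knockout-labelled library the median member ranked below the middle, but Mir182 and Mir429 (rank 136) ranked above it. The members' wild-type ranks by log2 over input ran from 64 (Mir182) to 149 (Mir96) of 312, so they did not stand among the highest miRNAs of the wild-type IP. Their median was 9.32, against 8.04 for the 304 others (quartiles 6.12 and 9.46). Knockout-labelled ranks ran from 128 (Mir182) to 269 (Mir200c) of 339. The median there was 4.85, against 5.80 for the 331 others (quartiles 3.26 and 7.35). The median member had 72.1% of miRNA genes below it in wild type. In the other library it had 38.6%. Since the members were chosen for high wild-type values, the drop in rank carries no test.

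**Figure D3:**
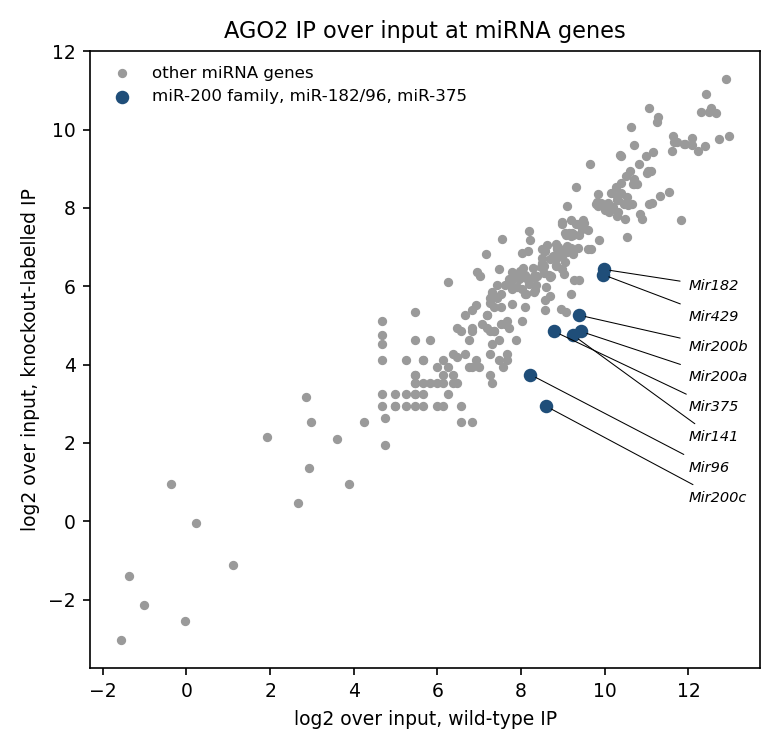
Log2 over input in the knockout-labelled IP against that in the wild-type IP, for each miRNA gene with a region in both. Blue points are the 8 members, joined to their names by lines, and grey points the other miRNA genes. The members lie along the lower edge of the cloud, from Mir182 (9.98 and 6.43) to Mir200c (8.59 and 2.94).

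The IPs are compared with each other in the authors' deposited table. In the authors' deposited table all 8 members reached limits of 3 (−log10 p) and 1 (log2), as did 64.1% of its miRNA genes and 3.39% of all its regions, and members were chosen in part on it. In the authors' deposited table Mir200c had log2 4.80 (−log10 p 26.4), Mir200a 3.96 (41.8), Mir141 3.87 (36.3), Mir96 3.74 (17.5), Mir200b 3.52 (37.2), Mir375 3.32 (23.4), Mir429 3.09 (48.5) and Mir182 2.98 (47.3). Among 236 miRNA genes with 20 or more reads in the IPs together or a −log10 p of 400, these took ranks 1 to 5, 8, 10 and 13 in the authors' deposited table. The member median was 3.63 in the authors' deposited table, against 1.51 for 228 others (quartiles 1.23 and 1.84). Of those, 5 (2.19%) lay above the lowest member and 0 above the member median. Over all 304 other miRNA genes, with no limit on reads, 18 (5.92%) lay above the lowest member and 3 above the member median in the authors' deposited table. The members' ranks among all 312 then ran from 1 (Mir200c) to 26 (Mir182). With 20 or more reads, the highest outside the set were Mirlet7f-2 (3.36 on 18 and 3 reads) and Mir9-2 (3.33 on 31 and 6) in the authors' deposited table. In its own knockout-labelled cluster Mir9-2 had 17 reads. Both genes have relatives, so their single values carry the same limit as those of the members. Most miRNA genes were higher in wild type there, so a member's distance from the miRNA median is smaller than its distance from 0. Of the 46862 regions compared, 46799 have the bounds of wild-type clusters, so knockout-labelled reads outside those bounds are not counted. The 64.1% and the medians thus describe miRNA genes with a wild-type cluster.

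**Figure D4:**
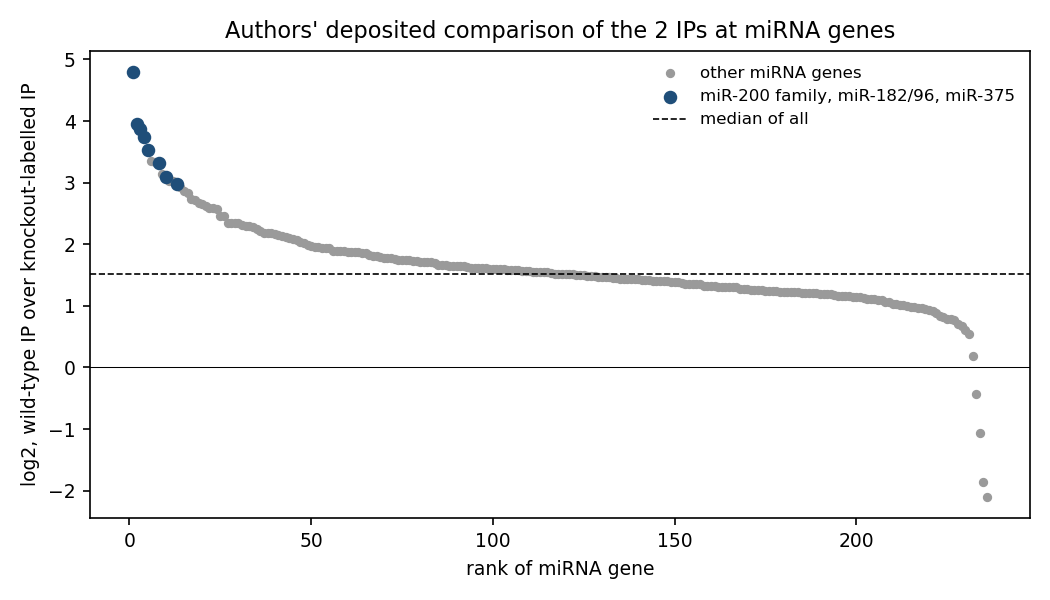
The 236 miRNA genes of that depth, ranked by log2 of the wild-type over the knockout-labelled IP in the authors' deposited table. Blue points are the 8 members, the dashed line is the median of all, and the members occupy 8 of the first 13 ranks.

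Mir183, of the same gene cluster as Mir182 and Mir96 but not a member, had fewer reads than either. It had 10 wild-type and 6 knockout-labelled reads, a ratio of 3.80 (1.25 to 12.7). This interval overlaps those of Mir182 and Mir96. Its log2 in the authors' deposited table was 1.70, not past the limits, and it was enriched over input only in wild type (5.99 and 3.52). Its mature form differs from miR-182-5p at 4 of 22 positions, 2 of them in the seed.

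The miRNA genes whose 3 log2 values lay nearest to the member medians were found by Euclidean distance over 286 genes, with both libraries and the table as the points, which share the wild-type IP. Mir26a-2 was nearest (distance 0.736), with 85 wild-type and 21 knockout-labelled reads. Mir497 (1.41; 60 and 22 reads), Mir27b (1.62; 106 and 37), Mir9-3 (1.63; 97 and 37) and Mir219a-1 (1.69; 65 and 28) followed. Mir26a-2 had log2 3.14 in the authors' deposited table, above Mir182 and Mir429. Mir26a-2 and Mir9-3 also have relatives, so their single values are less certain.

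Clusters in 3′ UTRs were searched for 7-base sites of the 4 seeds: CAGTGTT or AGTGTTA for miR-200a and miR-141, CAGTATT or AGTATTA for miR-200b, miR-200c and miR-429, TTGCCAA or TGCCAAA for miR-182, and GTGCCAA or TGCCAAA for miR-96. TGCCAAA counts for both of the last. Only the transcript strand was read, and miR-375 was not searched. In wild type, 118 of 3175 enriched 3′ UTR clusters held a site (3.72%, 3.09 to 4.43), against 102 of 5406 not enriched (1.89%, 1.54 to 2.29). The enriched ones were longer (median 51 against 29 bases), and per kilobase the values were 0.707 and 0.583 clusters with a site. In the knockout-labelled library, 44 of 950 enriched (4.63%, 3.39 to 6.17) and 225 of 9722 other clusters (2.31%, 2.02 to 2.63) held a site, at median lengths of 71 and 45 bases and 0.628 and 0.509 per kilobase. A match shows only that the letters are there.

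By seed, 38 enriched wild-type clusters held a miR-200a and miR-141 site, 20 a miR-200b, miR-200c and miR-429 site, 53 a miR-182 site and 52 a miR-96 site. The knockout-labelled counts were 13, 11, 13 and 14. Per kilobase, the enriched clusters were not above the others for every seed. For miR-96 in wild type the values were 0.311 (enriched) and 0.315 (not enriched) clusters with a site. In the knockout-labelled library they were 0.200 and 0.228 for miR-96 and 0.185 and 0.222 for miR-182. With 8-base sites the knockout-labelled shares were 0.421% of enriched (0.115 to 1.07) and 0.504% of other clusters (0.373 to 0.666), the opposite order to that of the 7-base sites, with overlapping intervals. The 3′ UTR regions with a site did not stand apart in the comparison of the IPs. In the authors' deposited table, 32 such regions with 20 or more reads had a median log2 of 0.94 (quartiles 0.70 and 1.21), beside 0.93 for all 670 3′ UTR regions of that depth (0.55 and 1.42). The member miRNA genes themselves had a median of 3.63 in the authors' deposited table.

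Of the 5 genes per seed with the highest-scoring enriched 3′ UTR cluster holding a site, 2 were named in both libraries for miR-200a and miR-141, 2 for miR-200b and its relatives, 4 for miR-182 and 3 for miR-96. Alg2, a mannosyltransferase gene of N-glycan assembly, had 68 IP and 1 input reads in wild type (log2 7.75), and 112 and 4 in the other library (5.42). Atp2a2, a calcium pump gene, had 12 and 0 reads (6.25) and 28 and 1 (4.75). Emc10, a subunit gene of an endoplasmic reticulum membrane complex, had 96 and 0 reads (9.25) and 112 and 0 (7.75). Dchs1, a protocadherin gene, had 21 and 0 (7.06) and 19 and 0 (5.19). The sites, with the matched bases in capitals, show 1 example for each seed, in the order miR-200a and miR-141, miR-200b and relatives, miR-182, and miR-96 (mm10, transcript strand, minus for all 4).
Alg2, chr4:47470021-47470050: gtttagcatgcCAGTGTTtcctgtccttca
Atp2a2, chr5:122456634-122456663: gctacctcagtCAGTATTtttggtttgcca
Emc10, chr7:44490560-44490589: actttgggaacTTGCCAAgctctctccagc
Dchs1, chr7:105753018-105753047: gcccagaacaaGTGCCAAttctcactctgg

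Other leading genes with miR-200a and miR-141 sites were Bcl11b, a transcription factor gene of cortical projection neurons (55 IP and 0 input reads, log2 8.45), Pgm2l1 (6.16), Clcn5 (6.75) and Ttr (4.66) in wild type. The knockout-labelled ones were Pgm2l1 (5.21), Zmat3 (5.40), Ube2o (5.11) and Kif1b (4.03). With miR-200b, miR-200c and miR-429 sites, Coro1c, Mtf2 and Gas7 followed Atp2a2 in wild type (4.66, 5.99 and 4.99), and Nfic, Prkar1a and Ptpn12 in the knockout-labelled library (4.40, 3.85 and 4.52). Among miR-182 and miR-96 sites, Myadm reached a log2 of 8.68 in wild type, and 7.71 in the other library. Bcl2, an anti-apoptotic gene, had 6.91 and 4.85, and Ankrd52 6.66 and 5.64. Vat1 had 7.42 and 5.89 on different clusters. Dcun1d2 (6.47) and Mbnl1, a splicing regulator gene (6.75), were named in wild type, and D17Wsu92e (5.46) in the knockout-labelled library.

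Known targets of the members carried AGO2 clusters, mostly with few reads. Of 16 miR-200 and miR-141 targets, 12 had an exonic wild-type cluster and 5 an enriched one, among them Zeb2, E2f3, Wasf3 and Lfng. In the knockout-labelled library 13 had a cluster and only Zeb2 was enriched. Of 16 miR-182 and miR-96 targets, 11 had a wild-type cluster and 6 were enriched (Foxo1, Foxo3, Clock, Bdnf, Celsr2 and Ryk). The knockout-labelled counts were 13 and 2 (Foxo3 and Celsr2). Of 13 miR-375 targets, 12 had a wild-type cluster and 8 were enriched (Mtpn, Pdk1, Elavl4, Cadm1, Rasd1, Insm1, Igf1r and Ahr), and in the other library 9 and 3 (Insm1, Ywhaz and Igf1r). Over all protein-coding genes with an exonic cluster, 50.4% of 6696 were enriched in wild type, and 13.6% of 8486 in the other library. In all, 20 of the 45 listed genes were enriched in wild type, the knockout-labelled library or both. Over the 12, 11 and 12 listed genes with an exonic region there, enriched or not, the list medians in the authors' deposited table were log2 1.80, 1.77 and 1.91, beside 2.19 over all 6696 protein-coding genes. These medians had no limit on reads, and the regions there held a median of 4 wild-type reads. With 20 or more reads, the 3′ UTR regions had a median of 0.93 in the authors' deposited table. The list medians and the 2.19 therefore cannot be set beside values at that depth.

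The miR-375 list was not searched for sites. In the other lists, an enriched cluster of a listed target held the seed site itself in 2 cases. In the 3′ UTR of Zeb2 a wild-type cluster (8 IP reads and 1 input read, log2 4.66) held an 8-base site of miR-200a and miR-141. In that of Celsr2, which encodes an adhesion receptor, a knockout-labelled cluster (13 and 2 reads, 3.05) held a miR-96 site. Zeb1, the other classic target, had a knockout-labelled 3′ UTR cluster with a miR-200b site at 3 IP and 0 input reads, which was not enriched (log2 2.52, −log10 p 0.92). Of the listed targets, Insm1 scored highest by −log10 p in both libraries. This endocrine transcription factor gene of the miR-375 list had 21 IP and 0 input reads in wild type (7.06), and 26 and 0 in the other library (5.64).
Zeb2, chr2:44988346-44988375: aaaattttgtaCAGTGTTAaggcctaaaaa
Celsr2, chr3:108392443-108392472: aaggccaactaGTGCCAAgtccctccccca

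Markers of the cell types known for these miRNAs were sparse. Of 10 epithelial markers, Epcam and Cdh1 among them, 0 had an exonic cluster in either library. Of 9 pituitary and endocrine markers, 3 had a wild-type cluster (37 reads in all) and 1 a knockout-labelled cluster (41 reads). Gh, the growth hormone gene, had 5 IP reads and 1 input read in wild type (log2 3.99) and no knockout-labelled cluster, and Prl, Pomc, Cga, Tshb, Lhb and Pou1f1 had none in either. Chgb was enriched in both (3.03 and 3.33). Olfactory markers had clusters for 2 and 3 of 6 genes (18 and 67 reads), without Cnga2, Gng13 or Stoml3 in either library. Photoreceptor and pineal markers had them for 2 and 1 of 7 (20 and 10 reads), without Crx, Nrl or Aanat, and Pde6b was enriched in wild type (5.25). Choroid plexus markers had them for 2 and 2 of 8 (167 and 294 reads), without Kl, Folr1, Aqp1, Clic6 or Kcne2 in either library. Ttr was enriched in both (7.77 and 3.86). Enpp2 was enriched in wild type (3.99 on 5 IP reads and 1 input read) and had no knockout-labelled cluster. Neuron markers had clusters for 8 of 8 in both (980 and 2413 reads). A gene without a cluster may still have had reads. The part of other tissue in the differences at the 8 miRNA genes was not tested.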

How the data were processed

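AGO2 eCLIP was measured in 2 IP libraries, 1 per genotype, each with an input. Per the labels' protocols and the submitters' processing notes, reads were trimmed with Cutadapt 1.15, cleared of repeats, mapped to mm10 with STAR 2.6.0c and deduplicated with UMI tools (version given as 5.2). Clusters were called with CLIPper 1.4 and compared with input, by a custom perl script. The deposited files list the authors' −log10 p-value, at most 400, and the authors' log2 ratio of read density. How the table of wild-type against knockout-labelled IP was made is not given in the sources used here. Of its regions, 46799 have wild-type bounds. Wild type is its numerator because 42466 of 42530 numerators equalled wild-type IP reads, where bounds were shared and reads recovered.

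Reads were recovered with Python 3.11.15, pandas 2.3.3 and scipy 1.17.1 as whole-number ratios (99.97%, 99.97% and 99.96% of regions, denominator at most 1000, tolerance 1e-07 on log2). Where bounds were shared, 83 of 89 denominators of the table equalled knockout-labelled reads plus 1. The same reading was taken for the scores over input, without such a check. The recovery was tested on simulated scores. For each gene the region of highest −log10 p was used. Abutting regions share reads and were not summed. All 1005 RefSeq hairpins compared equalled the genome.

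Genes named were the members, Mir183, the 5 nearest miRNA genes, listed targets with a site inside an enriched exonic cluster (at most 8 per list), the 5 genes per seed and library with the highest −log10 p, and markers with an enriched exonic cluster (at most 4 per list). Zeb1, Insm1, further listed targets and miRNA genes were named after their values were seen. Some genes that the rule names are not reported here. The members and lists were chosen with earlier results of these data known. Alternatives covered limits, centring, ranking and site definitions.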

Additional observations from a re-analysis of the deposited data

How the results depend on the processing

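The counts of 8 and 6 enriched members did not change at limits of 5 and 4. Requiring a region's midpoint to lie in the gene could not change them, because every member region lies inside its gene. The member medians did not change with the highest or the longest region taken. Abutting regions of a member share nearly all their reads, so this choice had little room to move the medians. The clusters lay on the 3p arm at 6 genes, or at 5 where regions had to lie within 3 bases of a listed arm. The gene lost was Mir375, whose 3p form is not among the listed mature miRNAs. Reads outside clusters on the opposite arm were not known. With 3′ UTR clusters only, 15 listed targets were enriched. Centred on the median of all miRNA genes, the member median over input was 1.23 in wild type instead of 9.32, and -0.95 in the knockout-labelled library instead of 4.85, which turned its sign. Ranked among enriched miRNA genes only, a median of 14.6% lay below the 6 enriched members in the knockout-labelled library. The 38.6% was over all 8 members. Centred likewise, the median in the authors' deposited table was 2.08 instead of 3.63, or 2.11 over genes with 20 or more reads, a setting chosen after seeing the data. With nothing added to the denominator, also chosen later, it was 3.76. Enriched 3′ UTR clusters with a site numbered 28 (wild type) and 4 (knockout-labelled) with 8-base sites, 204 and 71 with 20 bases added on either side, and 68 and 21 at limits of 5 and 4, instead of 118 and 44. With 8-base sites knockout-labelled clusters with a site were fewer per kilobase among enriched than other clusters (0.0570 and 0.111). At limits of 5 and 4, 8 listed targets were enriched instead of 20. Of 26 alternatives, 14 stayed within the limits, 11 moved and 1 reversed. The 14 include the midpoint settings and the choices of region for the medians, which had little or no room to move. No paired analysis was possible because each genotype has 1 library and the labels give no replicate numbers. Few knockout-labelled reads, 4 at Mir200c and 7 at Mir96, limit the precision of those ratios. With 1 library per genotype no replicate could be left out.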

Other observations

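Other miRNA genes known from epithelial, endocrine or choroid plexus cells were looked up after the values of the members had been seen, with the reads of both IPs in the regions of the table. Mir7-1 had 28 wild-type and 8 knockout-labelled reads, with log2 2.83 in the authors' deposited table. Its relative Mir7-2 had 41 and 32 reads, and Mir7b had 27 and 27 (1.14 in the authors' deposited table). Mir204, a miRNA of choroid plexus and retinal pigment epithelium, had 468 and 350 reads (1.60 in the authors' deposited table). Of the miRNAs of ciliated cells, Mir449a had 86 and 61 reads (1.66 in the authors' deposited table), Mir34c 29 and 23 (1.46) and Mir34b 8 and 4 (1.87). Mir203, an epithelial miRNA, had 4 and 4 reads (0.87 in the authors' deposited table), and Mir205 and Mir211 had no region in the files. All of these values lay below the lowest member, Mir182 at 2.98 in the authors' deposited table.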
